A study of Bos taurus with 6 samples.

Results

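The fibrillar collagen genes COL1A1, COL1A2 and COL3A1 were followed in liver biopsies of cattle. They were taken by their Ensembl identifiers (ENSBTAG00000013103, ENSBTAG00000013472 and ENSBTAG00000021466) from a table of 23833 genes. All 3 were present and all 3 had enough counts to be tested, among 14839 genes tested. The table holds identifiers only. The symbols are those of Ensembl's cattle annotation and could not be checked, since the available RefSeq table of ARS-UCD2.0 carries an Ensembl identifier for 0 of its 37063 genes.

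The samples were from Angus x Simmental cattle, 3 samples from cattle that received rumen-protected niacin and 3 from controls that did not. Niacin, or vitamin B3, feeds the synthesis of NAD, and its protected form is made to escape breakdown by rumen microbes. All 6 samples came from cattle offered Bermudagrass hay without restriction. The daily supplement per animal held 1.61 kg of tall fescue seed free of endophyte and 1.61 kg of a pellet of mainly corn and soybean meal. It also held 0.1 kg of molasses. The sources used here do not give the dose of niacin, its duration or the ages of the animals. The sample codes begin with NCN in each niacin library and with TNC in each control library. The meaning of these letters is not stated, so whatever they record cannot be told apart from niacin.

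Fibrillar collagens are the rope-like proteins that give connective tissue its tensile strength. COL1A1 and COL1A2 encode the alpha 1 and alpha 2 chains, which assemble together into type I collagen, while COL3A1 encodes the only chain of type III collagen. In the liver of humans and rodents these genes are known as products of stellate cells, portal fibroblasts and the myofibroblasts derived from them, and hepatocytes make little of them. Type III collagen is a main component of the fine reticular fibres of normal liver, and type I collagen is the main collagen of scar tissue.

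Libraries held 48593701 to 111478194 counts, with 54478409 to 111478194 in the niacin group and 48593701 to 57315443 in controls. Principal component analysis separated the groups on its first axis (57.1% of the variance), with the niacin libraries at 97.8, 89.5 and 48.8 for replicates 1, 2 and 3 and the controls between -85.2 and -74.9. Niacin replicate 3 thus lay nearest to the controls. Of all tested genes, 17.7% passed an adjusted p of 0.05 between niacin and control, 14.2% higher with niacin and 3.46% lower (edgeR quasi-likelihood F test, adjusted by Benjamini-Hochberg). The share of higher genes among these calls was 80.4%, against 69.6% with upper quartile factors, 70.2% with DESeq2 and 92.2% with TMM on genes of at least 100 CPM. Markers of hepatocytes, stellate cells or other cells could not be looked up without symbols, so the labelled tissue was not checked.

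The collagen genes did not move together between the groups. COL1A1 was 5.11-fold higher in niacin than in control libraries, while COL1A2, its partner in type I collagen, and COL3A1 did not pass the test. The ratio of COL1A1 to COL1A2 counts was 4.53-fold higher in niacin liver, with every niacin library above every control library. The exact permutation test of this ratio gave p = 0.1 (0.15 adjusted over the ratios compared), the minimum of the design before adjustment. The ratio largely restates COL1A1, whose own groups did not overlap. Such a separation, niacin above control, was found for 22.0% of all tested genes, and no such share was computed for ratios.

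COL1A1 encodes the alpha 1 chain of type I collagen. Values of a group are given in the order of replicates 1, 2 and 3. COL1A1 had 1520, 2962 and 1419 counts in the 3 niacin libraries and 252, 152 and 325 counts in the 3 controls. As counts per 1000000 of a library's scaled total (CPM, scaled by TMM), its level was 27.6, 28.0 and 15.2 with niacin and 4.67, 3.25 and 5.92 in controls, in the same order. The groups did not overlap: the lowest niacin library was 2.57 times the highest control. Niacin replicates 1 and 2 were close to each other and replicate 3 was lower, while control replicate 2 was the lowest of all. The mean was 23.6 ± 7.27 CPM in niacin liver and 4.62 ± 1.34 CPM in control liver (SD, n = 3 each).

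The log2 fold of COL1A1, niacin over control, was 2.35 ± 0.38 (SE), a 5.11-fold difference with a 95% interval of 2.93 to 8.92. The adjusted p was 0.00032 (edgeR quasi-likelihood F test, adjusted by Benjamini-Hochberg over all genes tested). COL1A1 ranked 475 by p among the 14839 genes tested, and 7.19% of them had a larger log2 fold. It was thus the 1 collagen gene of 3 called higher, where 14.2% of all tested genes were, and 0 of 3 were called lower, where 3.46% were. Among genes of similar abundance, with a mean of 10 to 100 CPM, 16.3% of 5266 were called higher. The call of COL1A1 was thus shared with many genes of its abundance. Groups that do not overlap, with niacin above control, were found for 22.0% of all tested genes.

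COL1A2 encodes the alpha 2 chain, which joins alpha 1 chains in the type I collagen molecule. It had 899, 1831 and 1407 counts in the 3 niacin libraries and 621, 627 and 1075 counts in the 3 controls. Its level was 16.3, 17.3 and 15.1 CPM with niacin and 11.5, 13.4 and 19.6 CPM in controls. All niacin libraries lay inside the control range. The mean was 16.3 ± 1.11 CPM in niacin liver and 14.8 ± 4.22 CPM in control liver (SD, n = 3 each).

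The log2 fold of COL1A2 was 0.13 ± 0.33 (SE) and did not pass the test (edgeR adjusted p = 0.845). Its 95% interval ran from 0.677-fold to 1.77-fold, so a difference of either sign within these bounds could not be told from none. The direction was not firm, since the log2 fold was -0.0028 with upper quartile factors and -0.018 without niacin replicate 2. The whole interval of COL1A2 lay below that of COL1A1.

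COL3A1 encodes the chain of type III collagen. It had 7605, 15833 and 19914 counts in the 3 niacin libraries and 7984, 4799 and 8441 counts in the 3 controls. Its level was 138, 150 and 214 CPM with niacin and 148, 103 and 154 CPM in controls. The groups overlapped, since niacin replicate 1 was below control replicates 1 and 3. Niacin replicate 3 was the highest of all libraries and control replicate 2 the lowest.

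The mean of COL3A1 was 167 ± 40.7 CPM in niacin liver and 135 ± 28.1 CPM in control liver (SD, n = 3 each). The log2 fold was 0.31 ± 0.32 (SE), a 1.24-fold difference with a 95% interval of 0.773 to 1.99 and an edgeR adjusted p of 0.586. Without niacin replicate 3, the highest library, the log2 fold was 0.06 (edgeR adjusted p = 0.915). Without control replicate 2, the lowest, it was 0.14 (edgeR adjusted p = 0.862). Leaving out either extreme was bound to lower the fold. It was 0.43 without niacin replicate 1 and 0.25 without niacin replicate 2. Without control replicates 1 and 3, each left out in turn, it was 0.40 and 0.41.

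**Figure D1:**
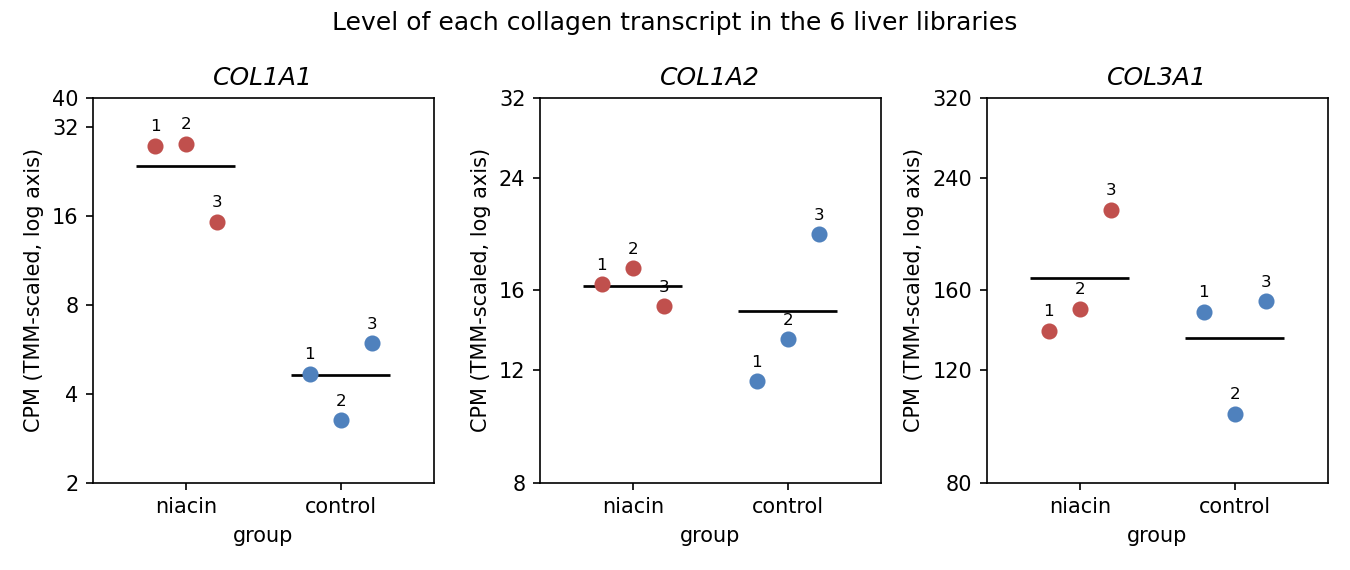
Level of COL1A1, COL1A2 and COL3A1 in each library, in CPM scaled by TMM on a log axis whose range differs between panels. Points are libraries marked with their replicate number and bars are group means. COL1A1 separates the groups (15.2 to 28.0 CPM with niacin, 3.25 to 5.92 CPM in controls), while the groups overlap for COL1A2 and COL3A1.

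**Figure D2:**
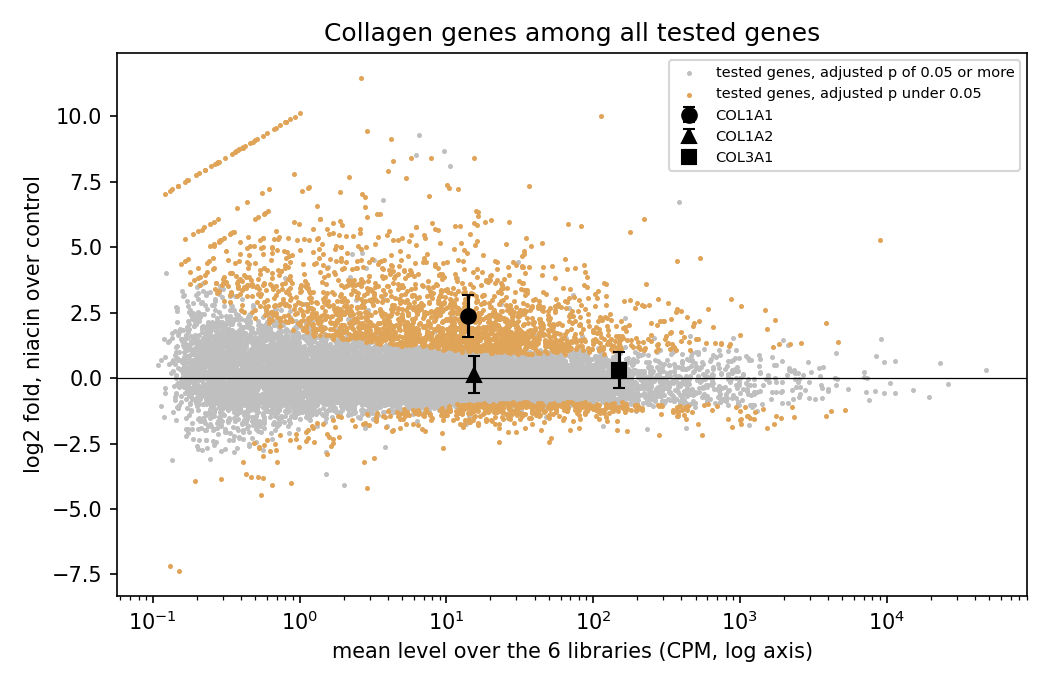
Log2 fold, niacin over control, against the mean level in CPM (log axis) for the 14839 tested genes. Orange points passed an adjusted p of 0.05 and grey points did not. The black symbols are the 3 collagen genes with 95% intervals, of which COL1A1 (2.35) lies among the genes called higher and COL1A2 (0.13) and COL3A1 (0.31) lie near 0.

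A ratio of counts within a library does not depend on how libraries are scaled. It does include the unequal lengths of the genes, so it is read between libraries and not as a ratio of chains. The COL1A1 to COL1A2 ratio was 1.69, 1.62 and 1.01 in the 3 niacin libraries and 0.406, 0.242 and 0.302 in the 3 controls. The groups did not overlap, and niacin replicate 3 was again the niacin library nearest to the controls. The mean ratio was 1.44 ± 0.375 in niacin liver and 0.317 ± 0.0826 in control liver (SD, n = 3 each). The mean log2 ratio was higher by 2.18 with niacin, 4.53-fold, against a pooled SD of 0.39 between libraries of a group. A two-sided exact permutation test gave p = 0.1, its minimum with 3 libraries a group, and 0.15 after Benjamini-Hochberg adjustment over the 3 ratios compared. The permutation test therefore cannot reach 0.05 here, whatever the size of the difference. Over the 9 pairs of a niacin with a control library, the ratio was 2.49 to 6.97 times higher with niacin.

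The COL3A1 to COL1A1 ratio was 5.00, 5.35 and 14.0 in the 3 niacin libraries and 31.7, 31.6 and 26.0 in the 3 controls. No niacin library reached the control range. The mean log2 ratio was -2.04 for niacin minus control, 0.244-fold (exact permutation p = 0.1, adjusted p = 0.15). Control libraries agreed closely in this ratio, with an SD of 0.16 on the log2 scale, while the SD was 0.83 among niacin libraries. Niacin replicate 3 stood between the other niacin libraries and the controls.

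The COL3A1 to COL1A2 ratio was 8.46, 8.65 and 14.2 in the 3 niacin libraries and 12.9, 7.65 and 7.85 in the 3 controls. The groups overlapped, with 1 high library in each. The mean log2 ratio differed by 0.14, against a pooled SD of 0.42 (exact permutation p = 0.5, adjusted p = 0.5), and by -0.10 without niacin replicate 3.

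**Figure D3:**
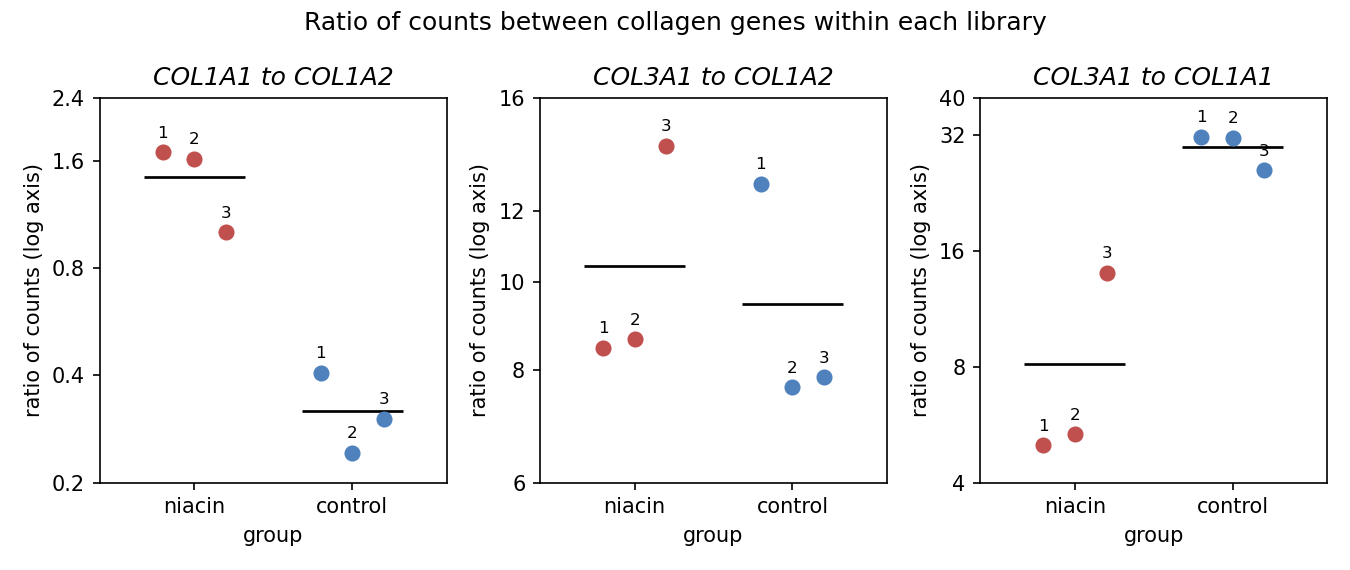
Ratios of counts between the collagen genes within each library, on log axes whose ranges differ between panels. Points are libraries marked with their replicate number and bars are group means. The panels with COL1A1 separate niacin from control (1.01 to 1.69 against 0.242 to 0.406 for COL1A1 to COL1A2), and the COL3A1 to COL1A2 panel does not.

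The summed level of the 3 genes was 182, 195 and 244 CPM in the 3 niacin libraries and 164, 119 and 179 CPM in the 3 controls. The groups were separate only by the narrow gap between niacin replicate 1 and control replicate 3. Means were 207 ± 32.7 CPM and 154 ± 31.3 CPM (SD, n = 3 each), a log2 difference of 0.44 (two-sided exact permutation p = 0.1, the minimum of this design). The p was 0.3 with library totals in place of TMM and 0.5 with upper quartile factors. COL3A1 supplied 75.9% to 90.1% of the summed counts in every library, a share that again includes gene length, so the sum is weighted towards COL3A1. COL3A1 alone overlapped between the groups, however, so the gap in the sum also draws on COL1A1. The COL1A1 share of the summed counts was 6.24% to 15.2% with niacin and 2.72% to 3.30% in controls. As measures of connective tissue RNA in the biopsies, the genes thus gave differences of unequal size. These were 5.11-fold for COL1A1, 1.10-fold for COL1A2 and 1.24-fold for COL3A1, and only COL1A1 passed the edgeR test. The sum, at 1.35-fold, contains COL1A1 and is no separate measure. In a bulk sample, more cells of a type and more RNA per cell cannot be told apart.

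The spread between libraries was above counting error for each collagen gene, least so for COL1A2 with niacin. For COL1A1 the coefficient of variation was 30.8% with niacin and 29.0% in controls, where counting alone gives 2.36% and 6.43%. For COL3A1 it was 24.4% and 20.8%, where counting gives 0.861% and 1.19%. COL1A2 varied by 6.83% with niacin, the narrowest spread, and by 28.5% in controls, where counting gives 2.80% and 3.60%. Even the lowest value, 152 counts of COL1A1 in control replicate 2 (3.13 per 1000000 unscaled counts), had an exact (Clopper-Pearson) 95% interval of 2.65 to 3.67 on that scale. These intervals cover counting error only.

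Within groups the genes kept different orders. Niacin replicate 3 was lowest for COL1A1 and COL1A2 and highest for COL3A1. Control replicate 3 was highest for all 3 genes, control replicate 2 was lowest for COL1A1 and COL3A1, and control replicate 1 was lowest for COL1A2. With the group means removed, Pearson's r of log2 CPM over the 6 libraries was 0.55 for COL1A1 with COL1A2, -0.10 for COL1A1 with COL3A1 and 0.07 for COL1A2 with COL3A1, given as a description.

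The position of niacin replicate 3 was shared by many genes. Its COL1A1 level was 0.548 times the mean of the other niacin libraries. Over the other 2108 genes called higher with niacin, the median of that ratio was 0.605, and replicate 3 was the lowest niacin library for 81.4% of them, against 39.0% of all tested genes. The same ratio was 0.898 for COL1A2 and 1.49 for COL3A1. In this ratio COL1A1 stood near the median of the genes called higher, a set drawn from these same libraries. COL1A2 and COL3A1 were not called, and over all other tested genes the median was 0.989. The part of this library in the results was measured by leaving it out, which gave COL1A1 a log2 fold of 2.55 (edgeR adjusted p = 0.000511).

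The last letter of the sample codes, M or F, has no stated meaning and splits 2 to 1 in each group. Among the M libraries COL1A1 was 4.04-fold higher with niacin (means of 21.4 and 5.30 CPM, n = 2 each). Between the F libraries, 1 of each group, it was 8.63-fold higher (28.0 and 3.25 CPM). COL1A2 was 1.01-fold and 1.29-fold, and COL3A1 1.17-fold and 1.46-fold, in the same order. With the letter as a term in the fit, the log2 fold was 2.37 for COL1A1, 0.13 for COL1A2 and 0.33 for COL3A1. Every niacin library exceeded every control in COL1A1, so any split with both groups in each part had to show it higher in each. The folds within letters are therefore a description and no check on the letter.

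The genes whose pattern within groups was most like the mean of the collagen genes were ENSBTAG00000002485 (Pearson's r = 0.99) and ENSBTAG00000000305 (r = 0.99), out of 6490 genes with a mean of at least 10 CPM, over 6 libraries with group means removed. ENSBTAG00000002485 had 36.6, 38.2 and 32.7 CPM in the 3 niacin libraries and 36.2, 31.0 and 46.9 CPM in the 3 controls. ENSBTAG00000000305 had 25.9, 25.1 and 21.4 CPM with niacin and 16.5, 11.5 and 24.0 CPM in controls. Neither differed between the groups at an adjusted p of 0.05 (edgeR adjusted p = 0.896 and 0.393). So few libraries let some genes match any pattern closely, and these identifiers carry no symbol here. The collagen genes themselves varied little together within groups (r of 0.55, -0.10 and 0.07 between pairs), so their mean is not a pattern that they share.

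The call on each collagen gene was the same under all alternatives. COL1A1 was called higher in 17 of 17, with log2 folds of 2.13 to 2.57 and adjusted p (edgeR, DESeq2 or limma) of 2.04e-07 to 0.00269. COL1A2 and COL3A1 were called in 0 of 17 each, with adjusted p of 0.64 to 0.997 and 0.349 to 0.915.

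**Figure D4:**
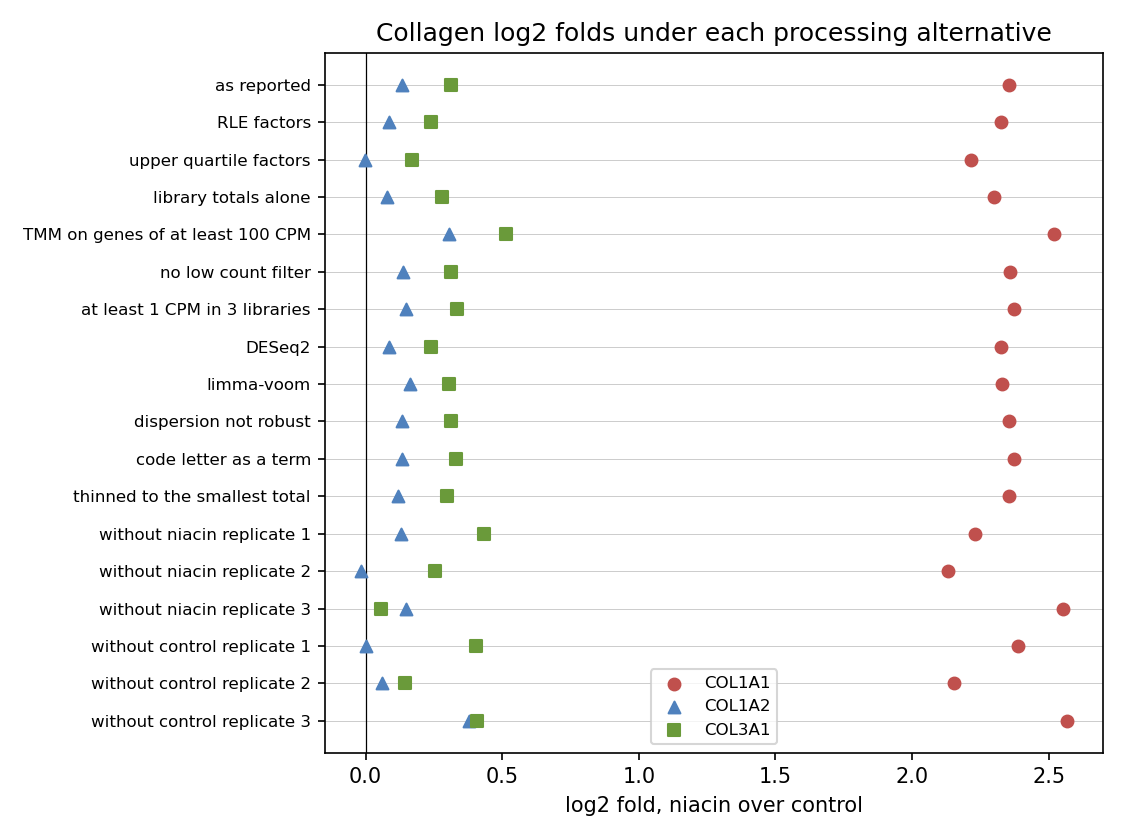
Log2 fold, niacin over control, of the 3 collagen genes as reported and under 17 alternatives of scaling, filter, tool, covariate, depth and left-out library. COL1A1 stays between 2.13 and 2.57, COL1A2 between -0.018 and 0.38, and COL3A1 between 0.06 and 0.51.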

How the data were processed

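RNA of 6 liver biopsies was poly(A)-selected and sequenced in pairs of 150 bp from stranded libraries, as the labels' protocols state. The authors deposited raw counts per Ensembl gene. The submitters' processing notes name, with no role, TopHat2 2.1.1, HTSeq, DESeq2, Trimmomatic 0.36, Cufflinks 2.2.1, FastQC 11.5 and bedtools 2.30.0. The sources used here do not give the genome build, annotation release or strand setting, so reads of overlapping genes may be miscounted.

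Groups came from the agent label, and replicate numbers, given in accession order, pair nothing. Each sample has its own animal code, but no label says in words that the animals differ, so p-values refer to the spread among these samples, which may be technical. Genes passing filterByExpr (minimum count 10) were scaled by TMM and tested with edgeR 4.0.16 in R 4.3.3 (quasi-likelihood, robust, no covariate, Benjamini-Hochberg, threshold 0.05). DESeq2 1.42.0 and limma 3.58.1 were alternatives. The SE of a log2 fold is the absolute log2 fold over the square root of F. Single values were compared by two-sided exact permutation. The edgeR test was run on simulated counts with known changes before use. Members, lists, tests and alternatives were chosen with earlier results of these data known. Named genes were the 3 collagens and the 2 with the most similar pattern within groups. The 22 gene and marker lists needed symbols and were not applied.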

Additional observations from a re-analysis of the deposited data

How the results depend on the processing

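Across 17 alternatives (11 for the sums and ratios), 134 of 146 values stayed on the same side of 0 and of the threshold or, for counts of genes, stayed within 1.5 times. Part of this tally was fixed in advance. The exact test of the sums and ratios cannot pass 0.05 under any alternative, and the ratios do not change with the scaling. COL1A2 turned direction with upper quartile factors (log2 fold -0.0028) and without niacin replicate 2 (-0.018), and the COL3A1 to COL1A2 difference did without niacin replicate 3 (-0.10). With 1 library left out in turn, the log2 folds ran from 2.13 to 2.57 for COL1A1, from -0.018 to 0.38 for COL1A2 and from 0.06 to 0.43 for COL3A1. The log2 difference ran from 0.25 to 0.55 for the summed level, from 2.00 to 2.42 for COL1A1 to COL1A2, from -0.10 to 0.38 for COL3A1 to COL1A2 and from -2.52 to -1.77 for COL3A1 to COL1A1. Over all genes, 2622 were called, 2109 higher and 513 lower. Lower genes were 820 with upper quartile factors, 977 with DESeq2 and 206 with TMM on genes of at least 100 CPM. The median log2 fold over the tested genes, 0.07 with TMM, moved to -0.07 with upper quartile factors and 0.27 with TMM on abundant genes, so COL1A1 exceeded it under each. With 1 library left out, all calls ran from 1653 to 3549, those higher from 1436 to 2392 and those lower from 171 to 1157. The cause of these changes was not tested. No paired analysis was possible because no replicate number is shared between groups in the labels. With 3 libraries a group, the exact test cannot pass 0.05, and the intervals allow up to 1.77-fold for COL1A2 and 1.99-fold for COL3A1. Thinning to the smallest total left COL1A1 at 2.35.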
